A study of Mus musculus with 20 samples.

Results

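The genes that build the mitochondrial ribosome and the protein import machinery were followed in the epididymal adipose tissue (eWAT) of 3 groups of mice. Genes were taken by symbol: all those of the expression table whose mouse symbol begins with Mrpl, Mrps, Tomm or Timm and a number. This gave 101 of 14776 genes, of which 50 were Mrpl, 29 Mrps, 8 Tomm and 14 Timm. Of these, 99 are protein-coding and 2 are processed pseudogenes, Mrpl23-ps1 and Mrpl48-ps, whose reads may be shared with their parent genes, so that all 4 values are uncertain. RNA was sequenced from 20 male C57BL/6J mice that were 6 weeks old when feeding began. The NC group (6 mice) stayed on maintenance feed. The HFD group (7 mice) ate a high-fat diet with 60% of its energy from fat for 14 weeks and, still on that diet, received saline by gavage for 6 more weeks. The SZ-A group (7 mice) was fed in the same way and was given SZ-A, the alkaloids of mulberry twig (Ramulus Mori, Sangzhi), by gavage at 400 mg/kg each day during those last 6 weeks. No group received SZ-A on maintenance feed, and all mice were fasted overnight before the tissue was taken.

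Mitochondria carry their own ribosome, which translates the few proteins encoded by mitochondrial DNA, all of them parts of the respiratory chain and ATP synthase. Its large subunit (MRPL proteins) holds the peptidyl transferase centre and its small subunit (MRPS proteins) reads the mRNA. Both are encoded in the nucleus, so every one of these proteins is itself imported into the matrix, first through the TOM complex of the outer membrane (TOMM proteins) and then through the TIM23 complex of the inner membrane. The TIM22 complex, also built of TIMM proteins, inserts carrier proteins into the inner membrane. In white adipocytes, mitochondria supply the ATP and the carbon precursors on which fat storage and breakdown depend.

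The values were FPKM, that is, fragments scaled to the length of the transcript and to the number of mapped fragments of the mouse. Reads were recovered from FPKM and exon lengths and came to between 13567667 and 19388628 per mouse on genes. These are estimates and cannot all be exact. HFD 1 had 17216011, above the 15406889 that the same step gave for its whole library. Of the 101 genes, 93 had at least 100 recovered reads in every mouse. Some mice stood apart and are named where they touch a result. NC 6 had a summed level of 12 adipocyte marker genes of only 489 FPKM, with Adipoq at 26.6 FPKM, against 9287 to 22374 FPKM in the other NC mice. NC 1 and SZ-A 5 had the largest share of recovered reads on mitochondrially encoded genes, 8.34% and 11.6%. NC 1, NC 6 and SZ-A 5 had the highest levels of the cytosolic ribosomal protein genes. HFD 1 had the lowest adipocyte sum of its group, 1425 FPKM. All 14776 genes of the table are above 0 in every mouse, so a gene at 0 in any mouse could not be in it. None of the 10 listed epididymis marker genes was, which says nothing of epididymis RNA in single mice.

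Upstream sequences of 4 members are shown first, 1 per family, because letters bound by known regulators of nuclear mitochondrial genes lie in them. Each is the member of its family with the largest called fall on the high-fat diet (values further on) among those whose window held such letters. The windows come from RefSeq (GRCm38.p6) and run from 250 bases before to 50 bases after the annotated start. They lie at chr6:125191950-125192249 on the plus strand for Mrpl51, chr14:20393441-20393740 on the minus strand for Mrps16, chr2:164071120-164071419 on the minus strand for Tomm34 and chr9:50603651-50603950 on the plus strand for Timm8b. They are printed 5′ to 3′ along the gene. Capitals mark the GABP core CCGGAAG, which lies 90 bases before the start of Mrpl51, 74 bases before and 24 bases after that of Mrps16, 39 bases before that of Tomm34 and 12 bases before that of Timm8b. In Mrps16 and Tomm34 it lies on the other strand and is read there as CTTCCGG. In Timm8b, capitals also mark the ERR site CAAGGTCA, 95 bases before the start.
Mrpl51: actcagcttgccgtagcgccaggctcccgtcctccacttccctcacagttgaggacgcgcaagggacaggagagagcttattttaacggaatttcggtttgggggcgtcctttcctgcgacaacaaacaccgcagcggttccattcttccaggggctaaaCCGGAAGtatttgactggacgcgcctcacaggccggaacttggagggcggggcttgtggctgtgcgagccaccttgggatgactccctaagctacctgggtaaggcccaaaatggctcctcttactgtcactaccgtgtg
Mrps16: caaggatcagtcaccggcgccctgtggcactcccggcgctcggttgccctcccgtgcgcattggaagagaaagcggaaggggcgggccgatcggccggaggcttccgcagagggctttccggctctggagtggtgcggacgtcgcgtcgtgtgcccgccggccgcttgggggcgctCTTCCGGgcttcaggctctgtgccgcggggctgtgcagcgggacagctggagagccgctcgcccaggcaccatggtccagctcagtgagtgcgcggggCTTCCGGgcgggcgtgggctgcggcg
Tomm34: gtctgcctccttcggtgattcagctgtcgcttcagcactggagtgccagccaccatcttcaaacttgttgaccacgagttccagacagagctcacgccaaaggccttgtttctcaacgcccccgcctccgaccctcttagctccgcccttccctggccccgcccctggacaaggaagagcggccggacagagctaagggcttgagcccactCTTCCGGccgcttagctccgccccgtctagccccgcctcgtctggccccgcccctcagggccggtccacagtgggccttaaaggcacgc
Timm8b: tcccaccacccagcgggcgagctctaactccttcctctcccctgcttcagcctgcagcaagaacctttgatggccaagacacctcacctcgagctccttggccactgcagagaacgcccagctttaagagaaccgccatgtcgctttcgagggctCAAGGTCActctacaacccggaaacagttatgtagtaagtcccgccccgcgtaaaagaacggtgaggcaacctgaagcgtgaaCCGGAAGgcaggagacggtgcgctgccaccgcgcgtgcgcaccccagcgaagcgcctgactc

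Windows were found for 87 of the 101 members, and 4 motifs were searched on both strands. CCGGAAG, the core bound by GABP, was in the windows of 33 members, which is 37.9% of them, against 19.3% of 10748 genes of the expression table with a window and 9.93% of 27025 genes in all. AAGATGGCG, the core bound by YY1, was in 9 members (10.3%, against 3.39% of the table's genes), and its first 3 letters can be the last 3 of CCGGAAG. GCGCATGCG, the core bound by NRF1, was in 8 members (9.20%, against 3.96%), and CAAGGTCA, the site bound by oestrogen-related receptors (ERR), was in 3 (3.45%, against 1.26%). At least 1 of the 4 was in 46 members, 52.9%, against 25.8% of the table's genes. Of the 36 members with a window that were called lower on the high-fat diet, 14 held at least 1 motif and 9 held CCGGAAG. Of the 16 called higher with SZ-A, 7 held at least 1 motif and 4 held CCGGAAG. In both sets these shares were smaller than among all 87 members, where 46 held at least 1 motif and 33 held CCGGAAG. A link between the motifs and the calls was not tested. A match here is a description of letters and not of a bound site.

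The members covered a wide range of levels. Mean FPKM over the 20 mice ran from 1.07 for Mrpl23-ps1 to 77.6 for Timm8b, a chaperone of the intermembrane space, with a median of 12.3. After Timm8b, the most abundant transcripts per length were Mrps21 of the small subunit at 56.7 FPKM and Mrpl34 of the large subunit at 56.6 FPKM. The level of each symbol family was taken as the mean of log2(FPKM + 1) over its genes. The Mrpl genes lay between 3.54 and 4.20 in NC, 3.28 and 3.64 in HFD and 3.57 and 3.95 in SZ-A mice. The Mrps genes lay between 3.37 and 3.88 in NC, 3.02 and 3.32 in HFD and 3.14 and 3.66 in SZ-A mice. For Mrps, all NC mice were thus above all HFD mice. The Timm genes lay between 3.55 and 3.998 in NC, 3.26 and 3.56 in HFD and 3.43 and 3.95 in SZ-A mice, and the Tomm genes between 3.89 and 4.41, 3.69 and 4.04, and 3.83 and 4.18. Over all 101 members the highest mice were NC 1 at 4.10, NC 6 at 4.04 and SZ-A 5 at 3.89.

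**Figure D1:**
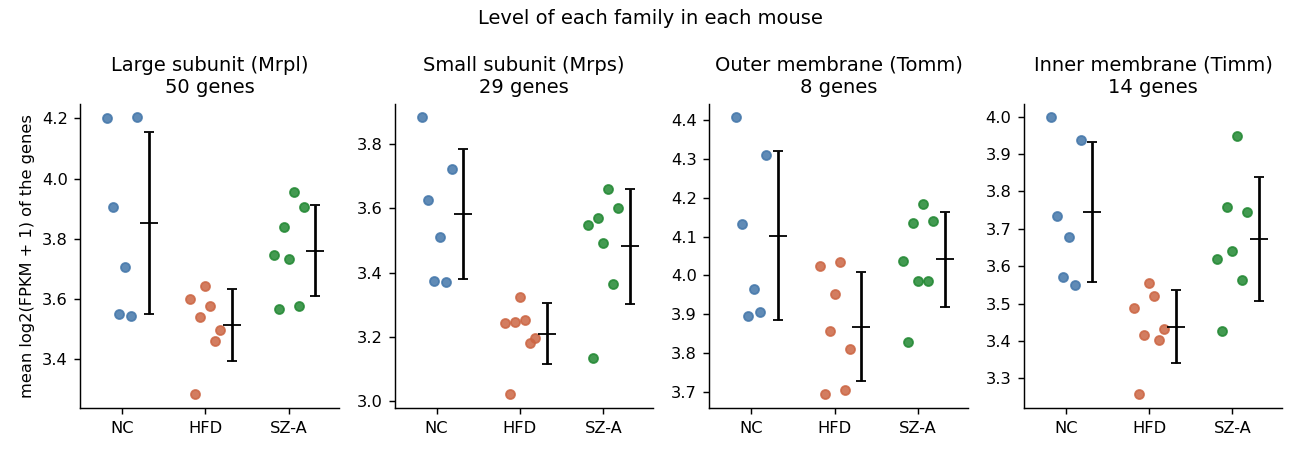
Mean log2(FPKM + 1) of the members of each family (Mrpl, Mrps, Tomm, Timm) in each mouse, by group (NC 6, HFD 7 and SZ-A 7 mice), with 1 point per mouse and black bars for the group mean ± SD. The HFD mean is the lowest in each family, and for Mrps the highest HFD value, 3.32, is below the lowest NC value, 3.37.

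The first comparison asked what the high-fat diet did, by setting HFD against NC mice. Most members were lower on the diet: the estimate was below 0 for 90 of 101, and the median log2 fold change was -0.34, against -0.04 over all 14706 genes tested. At an adjusted p under 0.05 (limma, Benjamini-Hochberg over all genes), 39 members (38.6%) were called lower, against 20.1% of all genes. Only 2 members were called higher, against 21.0% of all genes. By family, 16 of 50 Mrpl, 13 of 29 Mrps, 3 of 8 Tomm and 7 of 14 Timm genes fell, and 1 Mrpl and 1 Tomm gene rose. The changes were small: no member passed a log2 fold change of 1.5, the size the study's methods asked for, which 7.97% of all genes passed together with the adjusted p. The study's results text gives a fold change above 1.5, not on the log2 scale. That smaller size was not used for counts here. All HFD mice were below all NC mice for 12 members, against 7.77% of all genes, and above them for 0 members, against 12.7% of all genes. These p-values set the difference between the groups against the spread between these mice within each group.

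The share of falling members was smaller without NC 1 and NC 6. Without NC 6, 35 members fell (34.7%, against 22.6% of all genes) and 3 rose. Without both NC 1 and NC 6, a set of mice chosen after the values were seen, 27 members fell (26.7%), close to the 22.8% of all genes that did, and the median was -0.20. Of the 39 members, 25 kept their call, 14 lost it and 2 others, Mrpl37 and Timm21, gained one. Without them 3 members (2.97%) rose, against 22.7% of all genes. In bulk tissue, fewer cells of a type and less RNA per cell cannot be told apart.

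**Figure D2:**
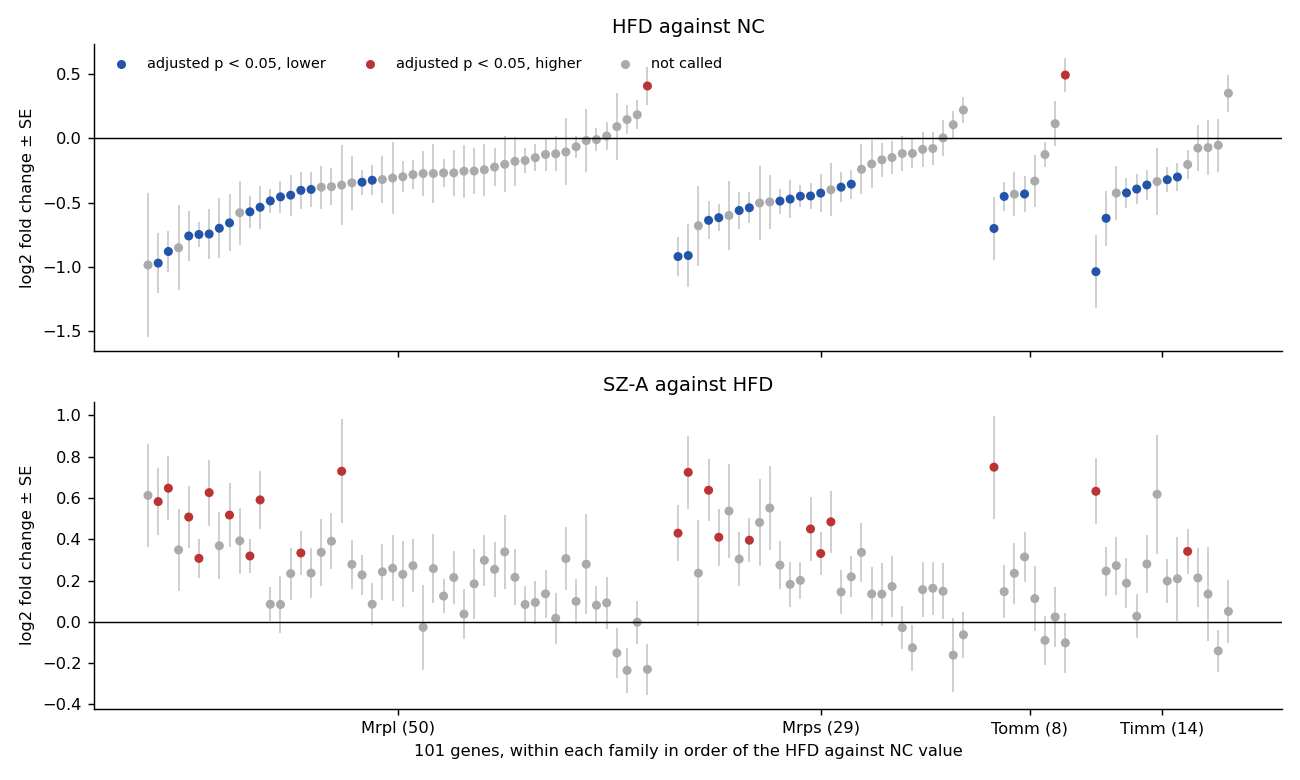
Log2 fold change of each of the 101 members, HFD against NC and SZ-A against HFD, on the log2(FPKM + 1) scale, by family, with bars for the SE and colours for members called lower or higher at an adjusted p under 0.05. The estimates lie below 0 for 90 members in the first comparison and above 0 for 89 in the second.

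In the large subunit, Mrpl41 (chr2:24974117-24975098), a subunit found only in mitochondrial ribosomes, had the largest called fall. Its lowest, median and highest levels were 22.7, 41.8 and 68.9 FPKM in NC and 12.2, 20.98 and 27.7 FPKM in HFD mice, and the groups overlapped. Its log2 fold change was -0.97 ± 0.23 (adjusted p = 0.0045), and -0.73 without NC 1 and NC 6. Mrpl30 (chr1:37890477-37898535), which has a counterpart in bacterial ribosomes, had 24.4, 31.04 and 45.5 FPKM in NC and 14.8, 16.4 and 20.9 FPKM in HFD mice, with no overlap. This was a log2 fold change of -0.88 ± 0.16 (adjusted p = 0.00063).

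Mrpl51 (chr6:125191801-125196269), whose upstream window is shown above, is another subunit without a bacterial counterpart. It had 10.4, 19.1 and 28.6 FPKM in NC and 8.404, 10.2 and 12.5 FPKM in HFD mice. Here the groups overlapped, and the log2 fold change was -0.76 ± 0.20 (adjusted p = 0.0076). Mrpl11, at the base of the stalk that recruits translation factors, went from 10.2, 16.3 and 26.6 FPKM to 6.804, 9.56 and 11.8 FPKM, with a log2 fold change of -0.75 ± 0.19 (adjusted p = 0.0077). The stalk protein itself, Mrpl12, was at 13.1 ± 4.61 FPKM in NC and 12.6 ± 3.405 FPKM in HFD mice (mean ± SD, n = 6 and 7), with a log2 fold change of -0.02 ± 0.25 (adjusted p = 0.96). Thus of the neighbours at this site, 1 passed the test and the other did not. Mrpl58, a peptidyl-tRNA hydrolase built into the large subunit, had a log2 fold change of -0.35 ± 0.21 (adjusted p = 0.21), and Mrpl34, the most abundant member of this subunit, one of -0.11 ± 0.26 (adjusted p = 0.77). The pseudogene Mrpl23-ps1 had the lowest level of all members, 1.21 ± 1.38 FPKM in NC mice, and a log2 fold change of 0.09 ± 0.26 (adjusted p = 0.80).

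A pair of large-subunit genes outside the naming rule is given because of their values. Mrpl9 (chr3:94443318-94451130) had the smallest adjusted p of all members. Its levels were 19.1, 21.5 and 22.2 FPKM in NC and 10.5, 11.9 and 14.02 FPKM in HFD mice, without overlap, and its log2 fold change was -0.75 ± 0.09 (adjusted p = 3.8e-05). Leaving out any 1 mouse kept the log2 fold change between -0.78 and -0.72. Mrpl37 (chr4:107055874-107066868) had the lowest estimate of the subunit but was not called, -0.99 ± 0.56 (adjusted p = 0.18). NC 6 alone had 172 FPKM, while its median in NC was 9.95 and in HFD 7.35 FPKM. Without NC 6 the log2 fold change was -0.31 (adjusted p = 0.011), and all HFD mice were below all NC mice with or without it.

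Mrpl19 was the 1 large-subunit gene called higher in HFD mice. It had 1.71, 2.17 and 3.24 FPKM in NC and 2.15, 3.48 and 4.51 FPKM in HFD mice, and a log2 fold change of 0.41 ± 0.15 (adjusted p = 0.037). The groups overlapped, and the call was lost without HFD 1, HFD 3, HFD 4, HFD 5, HFD 7, NC 2, NC 3, NC 4 or NC 5 (adjusted p from 0.0523 to 0.0807). Of its exon bases, 36.0% lie opposite Gcfc2, which was also higher in HFD mice, with a log2 fold change of 0.18 (adjusted p = 0.035) at 0.657 to 0.780 FPKM. Since it is not stated that strand was used in counting, reads of such a pair may not be separable.

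Of the 29 Mrps genes 13 fell, and none was called higher. Mrps35 (chr6:147042764-147073991), a subunit without a bacterial counterpart, fell most: 3.33, 4.29 and 7.901 FPKM in NC and 1.802, 1.96 and 2.29 FPKM in HFD mice, with no overlap. It had a log2 fold change of -0.92 ± 0.15 (adjusted p = 0.00030). Mrps6 (chr16:92058270-92112227), with a counterpart in bacteria, had 32.1, 42.4 and 88.7 FPKM in NC and 19.5, 30.1 and 32.9 FPKM in HFD mice. These groups overlapped, with a log2 fold change of -0.91 ± 0.25 (adjusted p = 0.010) and of -0.52 (adjusted p = 0.018) without NC 1 and NC 6. Mrps7, in the head of the subunit, went from 19.9, 27.7 and 34.1 FPKM to 14.5, 17.1 and 24.2 FPKM and had a log2 fold change of -0.64 ± 0.15 (adjusted p = 0.0037). The highest HFD value was that of HFD 4, within the NC range.

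Mrps16 (chr14:20389304-20393634), of the upstream windows above, was lower in every HFD mouse, 5.43 to 7.41 FPKM, than in any NC mouse, 8.06 to 11.7 FPKM, with a log2 fold change of -0.62 ± 0.11 (adjusted p = 0.00048). Mrps9, Mrps10, Mrps15 and Mrps24 did not overlap between the groups either, with log2 fold changes of -0.49, -0.45, -0.45 and -0.54. Some Mrps genes encode proteins that are not part of the small subunit, or not of it alone. Mrps30, which sits in the large subunit despite its name, had a log2 fold change of -0.47 ± 0.15 (adjusted p = 0.020). Mrps36, now known as a component of the 2-oxoglutarate dehydrogenase complex, had levels of 11.2 ± 2.28 and 11.2 ± 1.55 FPKM (mean ± SD, n = 6 and 7) and a log2 fold change of 0.00 ± 0.14 (adjusted p = 0.99). Mrps21, the most abundant Mrps transcript, had 24.5, 69.4 and 102 FPKM in NC and 28.4, 44.5 and 51.4 FPKM in HFD mice, with a log2 fold change of -0.50 ± 0.29 (adjusted p = 0.18), and Mrps22, the least abundant, one of 0.22 ± 0.10 (adjusted p = 0.093).

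Of the TOM complex, the receptor Tomm20 and the small subunit Tomm7 were called lower. Tomm20 (chr8:126930667-126945844), which recognises the presequences of matrix proteins, had 25.3, 28.7 and 35.4 FPKM in NC and 18.7, 21.03 and 25.4 FPKM in HFD mice, with overlap. Its log2 fold change was -0.45 ± 0.11 (adjusted p = 0.0056), and its call was kept without NC 1 and NC 6, -0.36 (adjusted p = 0.016). Tomm7, which takes part in assembling the complex, had 16.02, 31.9 and 45.7 FPKM in NC and 13.6, 15.8 and 28.4 FPKM in HFD mice and a log2 fold change of -0.70 ± 0.25 (adjusted p = 0.036). That call was lost without HFD 1, HFD 2, HFD 3, HFD 6, HFD 7, NC 1, NC 2, NC 4 or NC 6 (adjusted p from 0.0535 to 0.0819), and the groups overlapped. Without both NC 1 and NC 6 the log2 fold change was -0.47 (adjusted p = 0.13).

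The pore Tomm40 had a log2 fold change of -0.44 ± 0.17 (adjusted p = 0.058), and the receptors Tomm22 and Tomm70a had -0.33 ± 0.20 (adjusted p = 0.21) and -0.13 ± 0.10 (adjusted p = 0.33), none of which passed the test. Tomm34 (chr2:164053540-164071169), a cytosolic cochaperone of import that is no part of the complex, fell from 14.8, 17.97 and 27.9 FPKM to 11.8, 13.8 and 15.9 FPKM. Its log2 fold change was -0.43 ± 0.14 (adjusted p = 0.024), and -0.29 (adjusted p = 0.061) without NC 1 and NC 6. Tomm40l, a paralog of the pore, was the 1 Tomm gene that rose: 0.715, 0.929 and 1.34 FPKM in NC and 1.26, 1.65 and 2.94 FPKM in HFD mice, with a log2 fold change of 0.49 ± 0.13 (adjusted p = 0.0097). Of its exon bases, 64.3% lie opposite Nr1i3, which was not analysed here, so its reads may not be its own.

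At the inner membrane, 3 of the 6 TIM23 genes fell. Timm44 (chr8:4259731-4275913), which tethers the import motor to the channel, had 9.91, 11.02 and 16.4 FPKM in NC and 7.64, 8.44 and 9.17 FPKM in HFD mice, with no overlap although NC 1 was far above the other NC mice. Its log2 fold change was -0.42 ± 0.11 (adjusted p = 0.0094). Timm50 (chr7:28305516-28312072), the receptor facing the intermembrane space, had 17.7, 20.8 and 23.5 FPKM in NC and 14.1, 16.5 and 17.4 FPKM in HFD mice, again with no overlap, and a log2 fold change of -0.32 ± 0.10 (adjusted p = 0.018). Timm17b, a subunit of the channel, had a log2 fold change of -0.62 ± 0.21 (adjusted p = 0.031), and this call was lost without HFD 2, HFD 6, NC 1, NC 2 or NC 6 (adjusted p from 0.0536 to 0.0641). Without both NC 1 and NC 6 it was -0.28 (adjusted p = 0.096).

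The channel protein Timm23, the most abundant of the TIM23 genes, had levels of 21.3 ± 7.69 and 19.3 ± 3.28 FPKM (mean ± SD, n = 6 and 7) and a log2 fold change of -0.07 ± 0.21 (adjusted p = 0.81). Timm17a had one of -0.20 ± 0.11 (adjusted p = 0.15). Timm21, which links the complex to TOM, had one of -0.43 ± 0.21 (adjusted p = 0.12), and of -0.70 (adjusted p = 0.0026) without NC 1 and NC 6, where it passed the test.

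Timm8b (chr9:50603910-50605320), which chaperones membrane proteins across the intermembrane space, had the largest called fall of all members. Its levels were 51.8, 85.3 and 218 FPKM in NC and 43.8, 47.2 and 51.9 FPKM in HFD mice, and these overlapped. The log2 fold change was -1.04 ± 0.28 (adjusted p = 0.010) and shrank to -0.57 (adjusted p = 0.0074) without NC 1 and NC 6. Its paralog Timm8a1 had 3.36, 4.297 and 6.33 FPKM in NC and 4.600, 6.54 and 7.43 FPKM in HFD mice, with an estimate in the other direction, 0.35 ± 0.14 (adjusted p = 0.066), that passed the test without NC 1 and NC 6, 0.37 (adjusted p = 0.041).

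Of the other small chaperones, Timm9 had a log2 fold change of -0.36 ± 0.12 (adjusted p = 0.026), lost without HFD 6 or HFD 7 (adjusted p from 0.0535 to 0.0544) and, at -0.24 (adjusted p = 0.083), without both NC 1 and NC 6, while its partner Timm10 had -0.08 ± 0.18 (adjusted p = 0.76) and Timm13, the partner of Timm8 proteins, -0.34 ± 0.26 (adjusted p = 0.32). In the TIM22 complex, which inserts carrier proteins, the channel Timm22 had -0.05 ± 0.21 (adjusted p = 0.86). Its subunit Timm29 fell, with a log2 fold change of -0.39 ± 0.12 (adjusted p = 0.015), and -0.28 (adjusted p = 0.051) without NC 1 and NC 6. Timm10b, the least abundant Timm gene, had one of -0.30 ± 0.11 (adjusted p = 0.042), lost without HFD 2, HFD 3, HFD 4, HFD 6, HFD 7, NC 3, NC 4, NC 5 or NC 6 (adjusted p from 0.0540 to 0.0811).

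**Figure D3:**
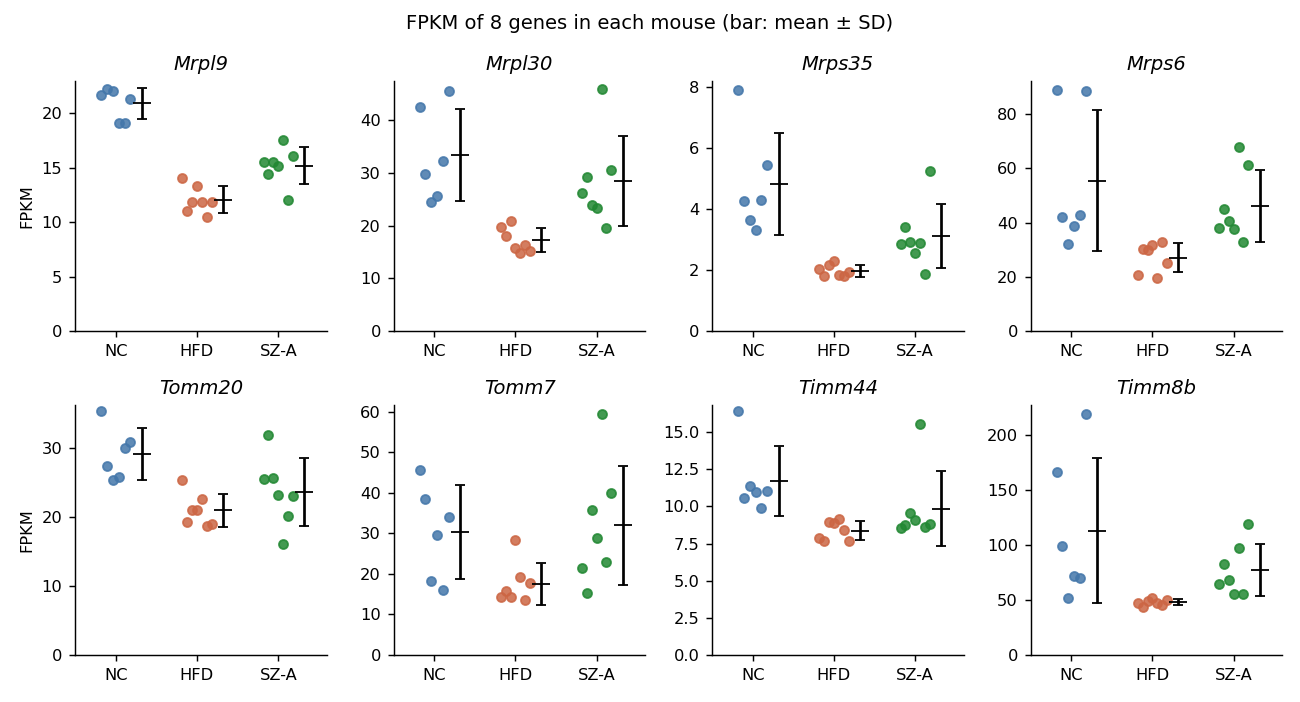
FPKM of 8 members in each mouse (Mrpl9, Mrpl30, Mrps35, Mrps6, Tomm20, Tomm7, Timm44 and Timm8b), by group, with 1 point per mouse and black bars for the mean ± SD. The HFD mice are below all NC mice for Mrpl9, Mrpl30, Mrps35 and Timm44 and overlap them for the other 4.

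The second comparison asked what SZ-A did on the high-fat diet, by setting SZ-A against HFD mice. The members lay mostly in the upward direction: the estimate was above 0 for 89 of 101, and the median log2 fold change was 0.23, against 0.03 over 14695 genes. At an adjusted p under 0.05, 21 members (20.8%) were called higher, against 9.47% of all genes, and 0 lower, against 13.3% of all genes. The 21 were 10 Mrpl and 8 Mrps genes, Tomm7, Timm17a and Timm8b. At an unadjusted p under 0.05 (limma), 38 members were higher and 1 was lower. All genes were not counted at that threshold, so these counts have no share to be set against. No member passed a log2 fold change of 1.5, which 0.864% of all genes did. Only Mrpl49 and Timm8b were higher in every SZ-A than in every HFD mouse, against 2.07% of all genes, and none was lower in every one, against 4.01% of all genes.

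The number of members called higher moved with single mice. It was 9 without SZ-A 3 (8.91%, against 6.81% of all genes) and 10 without HFD 2 (9.90%, against 7.76%), both close to the share of all genes. It was 11 without HFD 5 (10.9%, against 5.87%), and 12 (11.9%) without HFD 3, HFD 7, SZ-A 4 or SZ-A 7, against 6.54 to 8.06% of all genes. It was 13 (12.9%) without HFD 6 or SZ-A 1, against 8.91% and 6.98%, and 35 (34.7%) without SZ-A 2, against 11.8%. Without SZ-A 5, the mouse with the highest mitochondrial share, it was again 21, with 13.0% of all genes higher. Of those, 19 were the same genes, Mrpl54 and Tomm7 were lost, and Mrpl28 and Mrps10 came in. The same HFD mice served in both comparisons, which are therefore not independent of each other.

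In the large subunit, Mrpl30 was at 19.5, 26.2 and 45.8 FPKM (lowest, median and highest) in SZ-A mice and rose over HFD by a log2 fold change of 0.65 ± 0.16 (adjusted p = 0.0092). Its highest value was that of SZ-A 5, without which the log2 fold change was 0.53. Mrpl11 had 8.800, 16.5 and 20.03 FPKM and a rise of 0.63 ± 0.16 (adjusted p = 0.013), also on the log2 scale. Mrpl41 rose by 0.58 ± 0.16 (adjusted p = 0.019) and Mrpl51 by 0.51 ± 0.15 (adjusted p = 0.027), though the call for Mrpl51 was lost without HFD 1, HFD 2, HFD 3, SZ-A 3, SZ-A 4 or SZ-A 7 (adjusted p from 0.0504 to 0.0567). In each of these 4 genes the SZ-A and HFD mice overlapped.

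Mrpl54, a subunit without a bacterial counterpart, had the largest estimate of the subunit. Its levels were 20.4, 30.8 and 41.5 FPKM in HFD and 24.6, 50.6 and 97.5 FPKM in SZ-A mice, and its log2 fold change was 0.73 ± 0.25 (adjusted p = 0.048). The call was lost without HFD 1, HFD 2, HFD 3, HFD 5, HFD 6, HFD 7, SZ-A 1, SZ-A 3, SZ-A 4, SZ-A 5 or SZ-A 7 (adjusted p from 0.0590 to 0.0956). Mrpl9, the gene most clearly lower on the diet, had 12.1, 15.5 and 17.5 FPKM in SZ-A mice and rose by a log2 fold change of 0.31 ± 0.10 (adjusted p = 0.031), a call lost without HFD 2, HFD 3, HFD 5, HFD 6, HFD 7, SZ-A 1, SZ-A 3, SZ-A 4 or SZ-A 7 (adjusted p from 0.0530 to 0.0591). Mrpl49 went from 14.7, 16.2 and 17.1 FPKM to 17.2, 21.2 and 22.3 FPKM without overlap, a log2 fold change of 0.32 ± 0.08 (adjusted p = 0.013). Mrpl19, higher on the diet, had an estimate of -0.23 ± 0.12 (adjusted p = 0.18), and Mrpl12 and Mrpl58 had 0.28 ± 0.24 (adjusted p = 0.41) and 0.28 ± 0.12 (adjusted p = 0.097).

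In the small subunit, Mrps6 had the largest rise. It had 32.8, 40.5 and 68.00 FPKM in SZ-A mice, overlapping HFD, and a log2 fold change of 0.72 ± 0.18 (adjusted p = 0.0096). Mrps7 was at 18.01, 28.9 and 38.95 FPKM and rose by 0.64 ± 0.15 (adjusted p = 0.0082) on the log2 scale. Both kept their calls with any single mouse left out, at log2 fold changes of 0.63 to 0.80 and of 0.56 to 0.74.

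Mrps28, also of the small subunit, rose by a log2 fold change of 0.48 ± 0.15 (adjusted p = 0.032), lost without HFD 1, HFD 2, HFD 5, HFD 7, SZ-A 1, SZ-A 3, SZ-A 4 or SZ-A 7 (adjusted p from 0.0506 to 0.0695). Mrps35, at 1.86, 2.89 and 5.26 FPKM, rose by 0.43 ± 0.13 (adjusted p = 0.032), lost without HFD 1, HFD 2, HFD 5, HFD 6, HFD 7, SZ-A 1 or SZ-A 3 (adjusted p from 0.0506 to 0.0648). Mrps16 rose by 0.41 ± 0.14 (adjusted p = 0.043). Mrps30 and Mrps36 had estimates of 0.18 ± 0.11 (adjusted p = 0.23) and 0.15 ± 0.13 (adjusted p = 0.44), which did not pass the test.

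In the import machinery, 3 genes passed the test. Timm8b was at 54.9, 68.2 and 119 FPKM in SZ-A mice, all above the HFD mice, and had a log2 fold change of 0.63 ± 0.16 (adjusted p = 0.012), and 0.57 (adjusted p = 0.015) without SZ-A 5. Tomm7 was at 15.3, 28.8 and 59.4 FPKM, overlapping HFD, with the largest estimate of all members, 0.75 ± 0.25 (adjusted p = 0.043), but the call was lost without HFD 1, HFD 2, HFD 3, HFD 5, HFD 6, HFD 7, SZ-A 3, SZ-A 4, SZ-A 5 or SZ-A 7 (adjusted p from 0.0552 to 0.0823). Timm17a, the paralog of Timm17b in the TIM23 channel, rose from 5.05, 5.76 and 6.86 FPKM to 6.14, 7.19 and 9.43 FPKM, a log2 fold change of 0.34 ± 0.11 (adjusted p = 0.034), lost without HFD 1, HFD 2, HFD 3, HFD 5, SZ-A 1, SZ-A 3 or SZ-A 4 (adjusted p from 0.0639 to 0.0736).

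Most import genes that fell on the diet did not pass the test with SZ-A. Tomm20 had 16.04, 23.2 and 31.9 FPKM in SZ-A mice and an estimate of 0.15 ± 0.13 (adjusted p = 0.43). Timm44 and Timm50 had 0.19 ± 0.12 (adjusted p = 0.27) and 0.20 ± 0.11 (adjusted p = 0.19), Timm17b 0.25 ± 0.12 (adjusted p = 0.15) and Timm29 0.03 ± 0.11 (adjusted p = 0.87). The estimates of Tomm22, Tomm40, Tomm70a, Tomm34 and Tomm40l were 0.11, 0.23, -0.09, 0.31 and -0.10, and those of Timm23, Timm21, Timm22 and Timm10b were 0.13, 0.27, -0.14 and 0.21, none past the test. Among the small chaperones, Timm13 had 0.62 ± 0.29 (adjusted p = 0.13), with 125 FPKM in SZ-A 5 and a median of 44.6 FPKM, and Timm9, Timm10 and Timm8a1 had 0.28, 0.21 and 0.05.

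The third comparison set SZ-A against NC mice, that is, treated mice on the high-fat diet against mice that never ate it. Mrpl9 was the 1 member called, lower in SZ-A mice with a log2 fold change of -0.44 ± 0.11 (adjusted p = 0.039), and none was called higher. Of all 14718 genes, 0.455% were lower and 4.15% higher, and 1.79% passed a log2 fold change of 1.5 with the adjusted p, as no member did. At an unadjusted p under 0.05 (limma), where all genes were again not counted, 7 members were lower and 2 higher. The median log2 fold change was -0.08. The call for Mrpl9 was lost without NC 1, NC 2, NC 3 or NC 4, or without SZ-A 1, SZ-A 2, SZ-A 3, SZ-A 4, SZ-A 6 or SZ-A 7, each of which left 0 members called lower. Its SZ-A mice, 12.1 to 17.5 FPKM, were nonetheless all below its NC mice, 19.1 to 22.2 FPKM, and the same held for Mrps10, which was not called. For other members that fell on the diet the errors were large: Mrps35 had a log2 fold change of -0.49 ± 0.20 (adjusted p = 0.19), Timm8b one of -0.41 ± 0.33 (adjusted p = 0.53) and Tomm20 one of -0.31 ± 0.15 (adjusted p = 0.30). That these did not pass the test does not show that SZ-A mice were at the NC level.

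Some members are paralogs. The 3 Mrps18 genes share a bacterial ancestor, and of them Mrps18c fell on the diet, with a log2 fold change of -0.56 ± 0.14 (adjusted p = 0.0070), while Mrps18a, which sits in the large subunit, had -0.17 ± 0.13 (adjusted p = 0.33) and Mrps18b 0.11 ± 0.11 (adjusted p = 0.47). Mrps18b shares 30.5% of its exon bases with a gene on the other strand and Mrps18c 23.2% with one on its own strand. For the channel pair, Timm17b was at 13.9 ± 6.05 FPKM and Timm17a at 6.93 ± 0.867 FPKM in NC mice (mean ± SD, n = 6). The differences between paralogs in their response were not tested.

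Some features were shared beyond the symbol. More highly expressed members had lower estimates on the diet and higher ones with SZ-A: across the 101 genes, Spearman's rho between mean FPKM and log2 fold change was -0.358 for HFD against NC and 0.503 for SZ-A against HFD. These genes share the same libraries, and low genes are drawn toward 0 by the pseudocount. With exon length rho was 0.0537 and -0.253, against 0.164 and -0.22 across all genes. Of the 47 mitoribosomal genes with a bacterial counterpart, 20 (42.6%) fell on the diet and 12 (25.5%) rose with SZ-A. Of the 29 without one, 9 (31.0%) fell and 6 (20.7%) rose. Over all genes, 20.1% fell and 9.47% rose. A difference between these sets was not tested, and their median log2 fold changes on the diet were -0.36 and -0.35. Exons of 11 members share over 20% of their bases with another gene.

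Genes that work with the mitoribosome under other names were counted from lists. Dap3 and Aurkaip1, small-subunit proteins with other names, both fell on the diet, with log2 fold changes of -0.34 ± 0.10 (adjusted p = 0.012) and -0.47 ± 0.13 (adjusted p = 0.0085), and both rose with SZ-A, by 0.29 and 0.41. They were 2 of 5 listed. Of 11 mitochondrial translation factors, the recycling factor Mrrf fell, -0.34 ± 0.12 (adjusted p = 0.041), and the elongation factor Gfm1 rose, 0.45 ± 0.10 (adjusted p = 0.0028). With SZ-A, Mrrf was the 1 factor that rose. That is 9.09% of the factors each way on the diet, against 20.1% lower and 21.0% higher over all genes, and 9.09% against 9.47% with SZ-A. Of 20 genes for charging mitochondrial tRNA, 3 fell, among them the synthetases Ears2, -0.57, and Nars2, -0.54, and 2 rose with SZ-A, Ears2 by 0.40 and Gatb by 0.26. These shares, 15% lower and 10% higher, were below and near those of all genes. Of 21 assembly factors, 8 fell, led by the rRNA methyltransferase Mettl15, -0.55, and the anti-association factor Malsu1, -0.53, 1 rose, and 2 rose with SZ-A, Malsu1 by 0.39 and Mrm2 by 0.56. The share of assembly factors called lower on the diet was thus 38.1%, against 20.1% of all genes. The share called higher with SZ-A, 9.52%, was about the 9.47% of all genes.

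Among 9 genes of the import motor and its chaperones, 3 (33.3%) fell on the diet and 3 rose with SZ-A. Romo1, a partner of the TIM23 channel, had 82.1 ± 36.5 FPKM in NC, 38.8 ± 11.04 FPKM in HFD and 75.9 ± 23.97 FPKM in SZ-A mice (mean ± SD, n = 6, 7 and 7). Its log2 fold change was -0.98 ± 0.28 (adjusted p = 0.012) on the diet and 0.94 ± 0.21 (adjusted p = 0.0069) with SZ-A. Pam16, which holds back the motor's J protein, had -0.92 ± 0.15 (adjusted p = 0.00026) and 0.59 ± 0.16 (adjusted p = 0.015). Of 13 genes of sorting and processing, 3 (23.1%, near the 20.1% of all genes) fell and 1 rose, and 3 (23.1%, against 9.47%) rose with SZ-A: the inner membrane peptidases Immp1l and Immp2l had -1.02 and -0.90 on the diet, and Immp2l and the oxidase Gfer rose by 0.69 and 0.78 with SZ-A.

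Of 9 regulators of mitochondrial biogenesis, 2 fell on the diet, among them the coactivator Ppargc1a, -0.40 ± 0.14 (adjusted p = 0.032), and 2 rose, among them Pprc1, 0.74 ± 0.14 (adjusted p = 0.0011). Either way this is 22.2% of them, about the share of all genes. With SZ-A, Pprc1 and Ppargc1b fell, with log2 fold changes of -0.41 and -0.25. The respiratory chain depends on this machinery for its proteins. Of 81 nuclear-encoded genes of the chain, 44 (54.3%) fell on the diet and 31 (38.3%) rose with SZ-A, with medians of -0.59 and 0.36. Of 22 mitochondrially encoded genes, 8 (36.4%, against 20.1% of all genes) fell and 1 (4.55%, against 21.0%) rose on the diet. Their median was -0.78. With SZ-A 2 were called higher (9.09%, about the 9.47% of all genes), all 22 estimates were above 0 and the median was 0.98. The mean of log2(FPKM + 1) over these 22 genes was 10.35 in SZ-A 5 and 6.95 to 8.34 in the other SZ-A mice.

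**Figure D4:**
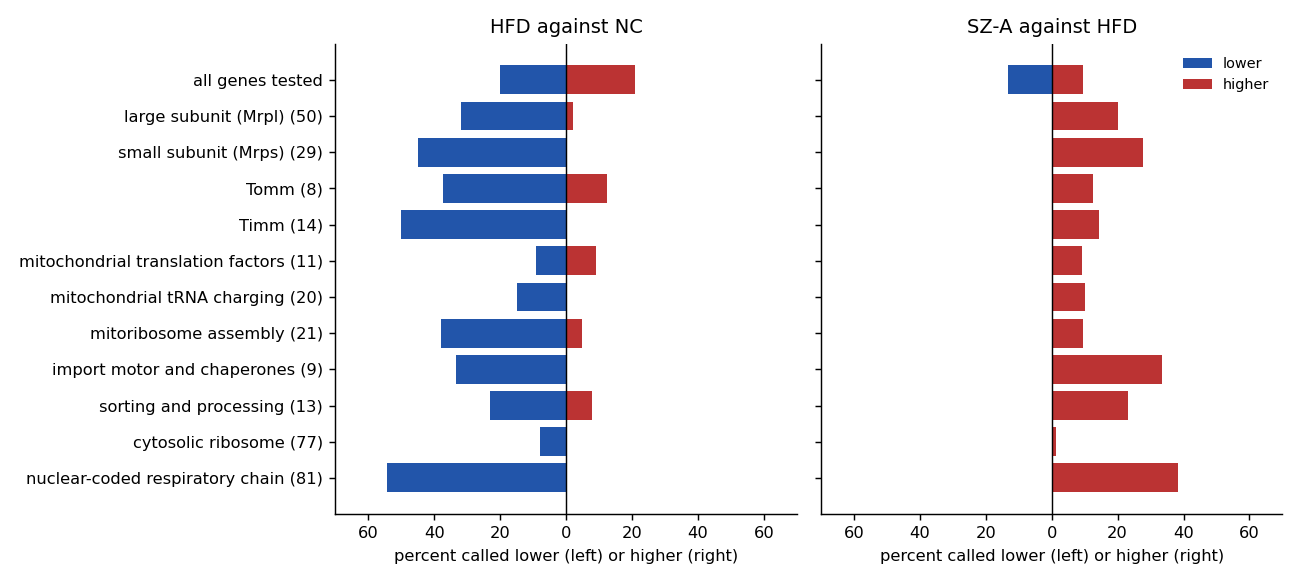
Percent of the genes of each family and list called lower (left) or higher (right) at an adjusted p under 0.05, HFD against NC and SZ-A against HFD, with all genes tested in the top row and the number of genes of each list in brackets. Of the 29 Mrps genes 44.8% were lower on the diet and 27.6% higher with SZ-A, and of the nuclear-encoded respiratory chain genes 54.3% and 38.3%.

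Genes of other cell types and of the cytosolic ribosome were counted as well. Over all genes, 20.1% were lower and 21.0% higher on the diet, and 13.3% lower and 9.47% higher with SZ-A. Of 15 macrophage markers, 14 rose on the diet and 13 fell with SZ-A. Their summed level was 88.7 to 857 FPKM in NC, 3615 to 9580 FPKM in HFD and 1458 to 4905 FPKM in SZ-A mice. Of 12 adipocyte markers, Cfd and Retn fell and Lep rose on the diet, and their sums were 489 to 22374 FPKM in NC, 1425 to 6205 FPKM in HFD and 4340 to 14170 FPKM in SZ-A mice. Of 6 smooth muscle markers 4 fell on the diet, with sums of 236 to 1760 FPKM in NC and 60.3 to 303 FPKM in HFD mice, of 6 fibroblast markers 4 rose and 1 fell, and of 3 mesothelial markers 2 fell. With SZ-A, 5 of the 6 fibroblast markers fell (median -1.02), while the estimates of all 12 adipocyte markers (median 0.88, with 2 called) and all 6 smooth muscle markers (median 0.97, with 1 called) were above 0. The 7 T and B cell markers and the 6 endothelial markers had median log2 fold changes of 0.45 and 0.49 on the diet. In either list 0 genes were called there. The endothelial sum was 6.13 FPKM in NC 6 and 91.8 to 329 FPKM in the other NC mice. Of the 77 cytosolic ribosomal protein genes, 76 had an estimate below 0 on the diet, with a median of -0.49. Only 6 (7.79%) were called lower there, and 1 (1.30%) was called higher with SZ-A, both below the shares of all genes. The mean log2 level of these 77 genes was 8.28 in NC 1, 8.58 in NC 6 and 8.36 in SZ-A 5, and at most 7.80 in the other mice. With that level as a covariate, chosen after the values were seen, 27 members (26.7%) were lower on the diet, against 21.9% of all genes. With SZ-A, 14 members (13.9%) were higher, about the 14.5% of all genes that were. The part of these cell types in the members' values was not tested.

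**Figure D5:**
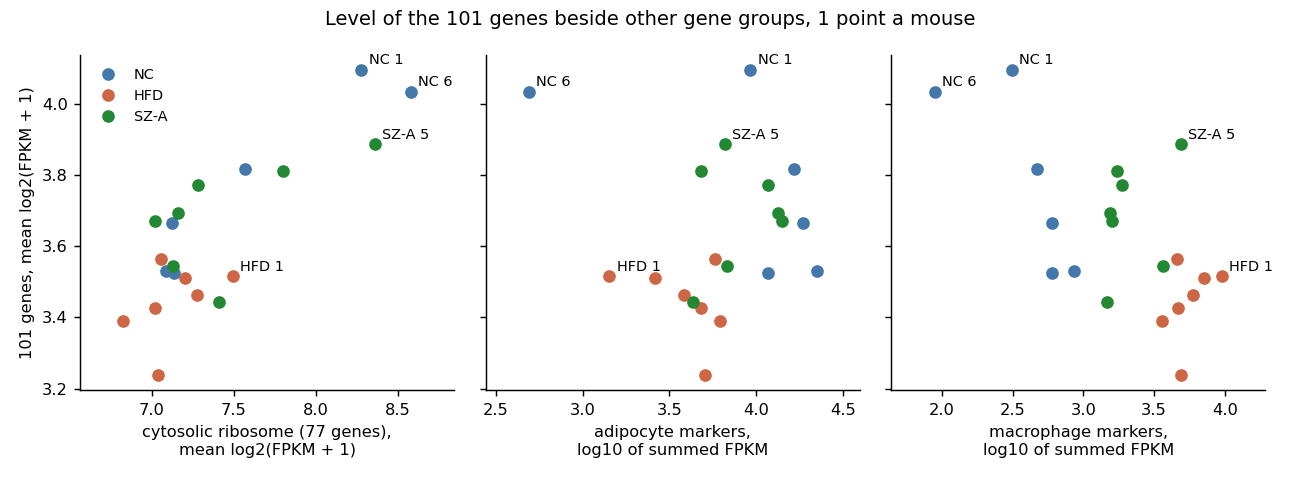
Mean log2(FPKM + 1) of the 101 members in each mouse against that of the 77 cytosolic ribosomal protein genes and against the log10 of the summed FPKM of adipocyte and macrophage markers, coloured by group, with NC 1, NC 6, HFD 1 and SZ-A 5 labelled. NC 1, NC 6 and SZ-A 5 are highest for both the members and the cytosolic ribosomal protein genes.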

How the data were processed

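RNA from the epididymal fat of 20 mice (NC 6, HFD 7, SZ-A 7) was sequenced, and the authors deposited FPKM per gene for all mice in 1 table. They aligned reads to GRCm38 with HISAT2 and counted them with featureCounts (1.5.0-p3, per the submitters' processing notes). Whether strand was used in counting is not given in the sources used here, and all columns of values in the table were used. FPKM scale a mouse's genes to its total, so a few very abundant transcripts can lower the rest. Reads were recovered from FPKM once exon lengths were known, which gave an estimate of 13567667 to 19388628 reads per mouse. Only values of lower read number were checked, and 95.9 to 96.3% of these gave whole reads, within 0.01. The most abundant genes were not checked in this way. The study's methods name a count model. As FPKM are not counts, limma 3.58.1 in R 4.3.3 (lmFit, eBayes with trend) was run on log2(FPKM + 1), 2 groups at a time, leaving out genes whose mean over the compared mice was under 0.1 FPKM, with Benjamini-Hochberg adjustment over all genes and calls at 0.05. Fold changes on this scale understate those of low genes. The limma steps were tested on simulated data. Python 3.11.15, pandas 2.3.3, scipy 1.17.1 and matplotlib 3.10.9 served for the rest.

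Gene positions and exon lengths came from GENCODE M21 (GRCm38), which held 14770 of the 14776 genes, and promoter windows from RefSeq. Of 103 protein-coding symbols that match the 4 families, 4 (Mrpl53, Timm8a2, Tomm20l and Tomm6) were not analysed here. The named genes were, in each role group, the 3 largest called rises and falls of each comparison, the highest and lowest mean FPKM, called members against the main direction and a list of known roles. From each other pathway list they were the 2 largest called changes of each comparison. Genes whose groups did not overlap and those with a printed window were named besides, and Mrpl9 and Mrpl37 were chosen after their values were seen. The members and lists were chosen with earlier results of these data known. Replicate numbers of the labels were not taken to pair the mice. Correlations of same-numbered deviations ran from -0.41 to 0.584. Differently numbered mice were not compared, so these values cannot decide whether the mice were paired. Alternatives were other pseudocounts, filters, scalings, gene sets, weights and tests, voom on recovered reads, all 3 groups in 1 fit, a replicate block and each mouse left out. Leaving out NC 1, NC 6 and SZ-A 5 together and the cytosolic ribosome covariate were added after seeing the data.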

Additional observations from a re-analysis of the deposited data

Results flagged for a closer look

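For the 44 named members, the highest and lowest mouse of each group was compared with the group's range (Dixon's test), 132 group values in all, and 17 stood apart from the rest of their group. Chance alone gives about 1 in 20. Of the 17, 9 were from SZ-A 5. In that mouse Timm13 was at 125 FPKM, Mrpl30 at 45.8 FPKM, Tomm34 at 26.5 FPKM, Timm44 at 15.6 FPKM and Timm8a1 at 10.3 FPKM, all above the other SZ-A mice, as were Timm9 at 6.02 FPKM and Timm10b at 4.83 FPKM. In the same mouse Tomm70a, at 5.90 FPKM, and Mrps18b, at 2.03 FPKM, were below them. SZ-A 5 also had the highest share of recovered reads on mitochondrially encoded genes, 11.6%, and its part in these values was not tested.

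Mrpl37 was at 172 FPKM in NC 6 and at 36.5 FPKM in SZ-A 2, each above the rest of its group. Mrpl23-ps1 was at 3.90 FPKM in NC 6, and Timm44 was at 16.4 FPKM in NC 1. In the HFD group, Mrpl34 was lowest at 33.8 FPKM in HFD 2, Mrps18c was at 15.7 FPKM in HFD 1, and HFD 4 had Tomm7 at 28.4 FPKM and Mrps7 at 24.2 FPKM.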

How the results depend on the processing

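No call of a named member, on the diet or with SZ-A over HFD, changed direction under any alternative. Other calls were not checked for this. The 39 members lower in HFD than in NC mice were 34 to 48 under the other tests, scalings, pseudocounts, filters and weights and 30 to 45 with 1 mouse left out. The replicate block gave 18 (17.8%, against 13.6% of all genes), and the log2 fold threshold of the study's methods gave 0. The 2 higher members were 1 under the exact rank test, quantile normalization, the block and without the mitochondrially encoded genes, 0 with the fold threshold, and 1 to 3 with a mouse left out. The 21 members that rose with SZ-A over HFD were 10 with all 3 groups in 1 fit (9.90%, against 4.93% of all genes), 48 with array quality weights (47.5%, against 21.9%), 0 with the fold threshold and 9 to 35 with a mouse left out. Array quality weights also gave 2 lower members there and 1 higher against NC. The 1 member lower in SZ-A than in NC mice became 3 with all 3 groups in the fit and under the exact rank test, 2 with weights, quantile normalization and the ribosome covariate, 0 with the fold threshold, the block and without mitochondrially encoded genes, and 0 to 1 with a mouse left out. The cause of these moves was not tested. For the named calls, each refit of each call was counted, so the totals are refits and not calls. On the diet, 34 of 286 refits with a mouse left out lost the call, as did 35 of 352 under the rest. The 34 were refits of Mrpl19, Timm10b, Timm17b, Timm9 and Tomm7. With SZ-A, 58 of 182 and 22 of 208 lost it. The 58 were refits of Mrpl9, Mrpl51, Mrpl54, Mrps28, Mrps35, Timm17a and Tomm7. Mrpl30, Mrps6 and Mrps7 kept their calls in both comparisons in all of these refits, though not with the fold threshold. Members with under 100 recovered reads in some mouse are the least precise, down to 2 reads for Mrpl23-ps1.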
